A study of Mus musculus with 8 samples.

Results

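Transcript levels of 10 genes of the Nrf2, glutathione and thioredoxin pathways were examined in activated mouse CD4 T cells cultured with added iron. The genes were chosen by symbol, with earlier results of these data known. They were Nfe2l2, Keap1, Gclc, Gclm, Gss, Gsr, Txnrd1, Txn1, Srxn1 and Nqo1. All 10 were among the 57010 genes listed for each library, and 9 of them, all but Nqo1, were among the 13751 rows of the authors' normalised table. Naive CD4 T cells (genotype wt, C57BL/6 mice, peripheral lymph nodes) were sorted and then activated for 20 h on coated anti-CD3 and anti-CD28, each at 4 µg/mL, which trigger the antigen receptor together with costimulation. The 4 FAC libraries came from cultures that received iron supplementation during activation, and the 4 control libraries came from cultures activated in the same way without it. Mouse numbers 1 to 4 each name 1 FAC and 1 control culture, so a library is named here by its group and mouse. The labels do not spell out FAC, and they give neither its dose, nor whether control cultures received a vehicle, nor the age or sex of the mice. The study asked how iron may stimulate T cell responses.

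Nfe2l2 encodes Nrf2, a transcription factor that Keap1 holds in the cytoplasm and hands to a ubiquitin ligase for degradation. When oxidants or electrophiles modify cysteines of Keap1, Nrf2 escapes degradation, enters the nucleus, pairs with small Maf proteins and binds antioxidant response elements in its target genes. Among its best known targets are genes that make and recycle glutathione and thioredoxin, the main thiol reductants of the cell, which both draw their electrons from NADPH. Work in mice has shown that T cells depend on glutathione synthesis and on thioredoxin reductase when they grow and divide after activation.

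The libraries held 25410267 to 32368377 counts in FAC and 25478716 to 37350609 counts in control cultures. All 7 T cell markers looked at reached 1 TPM (a level scaled for transcript length and to the same total in every library), and their summed level was 2112 to 2163 TPM in FAC and 2012 to 2083 TPM in control libraries. Both activation markers, Il2ra and Cd69, were also present, at a sum of 401 to 512 TPM in FAC and 365 to 475 TPM in control libraries. Of the markers of CD8 T cells, B cells, myeloid cells, dendritic cells, NK cells and stromal or endothelial cells, only Cd8b1, Zbtb46 and Pecam1 reached 1 TPM, the largest of these sums was 11 TPM, and Lyz2, Siglech, Ncr1, Pdpn and Cdh5 were at 0 in all 8 libraries. Both red blood cell markers were at 0 in 7 libraries and summed to 8.12 TPM in control 3, and no marker of any list passed the test. In RNA from a whole culture, fewer cells of a type and less RNA per cell cannot be told apart.

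Nrf2 and its Maf partner recognise a core written here as TGACNNNGC, which was searched on both strands of RefSeq promoter windows (build GRCm38.p6, 250 bases before to 50 bases after each start site). Of the 10 genes, 8 matched at least 1 window, with 10 windows in all; Gclc and Gsr did not. The core was present in 4 of these 10 windows, those of Nfe2l2, Gclm, Txnrd1 and Srxn1, and in 4071 of all 32851 windows (12.4%). The stretches of 3 of them are printed because these genes cover the different outcomes described further on: Txnrd1 rose with FAC, Gclm was lower by its counts and higher by its length-scaled level without passing a test, and Srxn1 had the largest estimate without passing the test. Capitals mark the core, which in all 3 reads on the strand opposite to the one shown; all are on the + strand.
Txnrd1, chr10:82858956-82859205: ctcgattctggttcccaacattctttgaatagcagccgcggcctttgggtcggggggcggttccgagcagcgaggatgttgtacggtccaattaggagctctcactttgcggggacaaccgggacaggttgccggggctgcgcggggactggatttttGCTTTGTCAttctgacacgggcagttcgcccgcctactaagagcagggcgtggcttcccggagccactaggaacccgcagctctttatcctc
Gclm, chr3:122245307-122245556: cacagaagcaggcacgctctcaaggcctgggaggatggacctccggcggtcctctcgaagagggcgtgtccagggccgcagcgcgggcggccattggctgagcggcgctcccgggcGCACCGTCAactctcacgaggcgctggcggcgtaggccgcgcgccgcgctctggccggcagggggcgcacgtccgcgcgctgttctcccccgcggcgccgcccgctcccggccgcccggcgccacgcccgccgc
Srxn1, chr2:152105542-152105570: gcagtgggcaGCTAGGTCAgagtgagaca
The Txnrd1 core, TGACAAAGC, begins 92 bases before the start site of 1 of the 3 Txnrd1 windows, and the other 2 hold none. The Gclm core, TGACGGTGC, begins 134 bases before the start, and the Srxn1 core, TGACCTAGC, begins 28 bases past it. The Nfe2l2 window (chr2:75704614-75704913, - strand) holds TGACTCCGC at 240 bases before its start. The AP-1 motif TGACTCA, which shares letters with the core, was present in 1709 of the 32851 windows (5.2%) and in 1 window of these genes, that of Srxn1, where its 2 matches do not overlap the core. Each match describes the letters in the window and was not tested as a binding site.

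Of the 10 genes, 9 passed the filter on low counts, and 2 of them, Gclc and Txnrd1, were higher with FAC at an edgeR adjusted p under 0.05; none was lower. Among all 13378 genes tested, 3.27% were called in either direction, 2.18% as higher and 1.10% as lower. Because the 10 genes were chosen with earlier results known, shares over all genes are given for description only. The log2 changes of the 9 genes ran from -0.07 to 0.55 with a median of 0.02, beside a median of 0.00 over all genes tested, and 6 were above and 3 below 0. Gclc and Txnrd1 were also the only 2 of the 9 whose FAC libraries did not overlap the control libraries, a separation in CPM that 11.1% of all genes tested showed in either direction and 6.17% with FAC higher. In TPM, 3 of the 9 did not overlap, Gclc, Txnrd1 and Srxn1, all with FAC higher, beside 9.38% of all genes tested in either direction and 7.08% with FAC higher. With the mouse as a block the same 2 genes were called, where 6.87% of all genes were, and likewise with DESeq2, where 6.33% were. With no filter on low counts Gclc alone was called (2.94% of all genes). None of the 10 was called with the effective gene length as an offset (1.40% of all genes), with limma on log2(TPM + 1) (0.598%) or with limma on the log2 of the authors' normalised signal (0.567%).

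**Figure D1:**
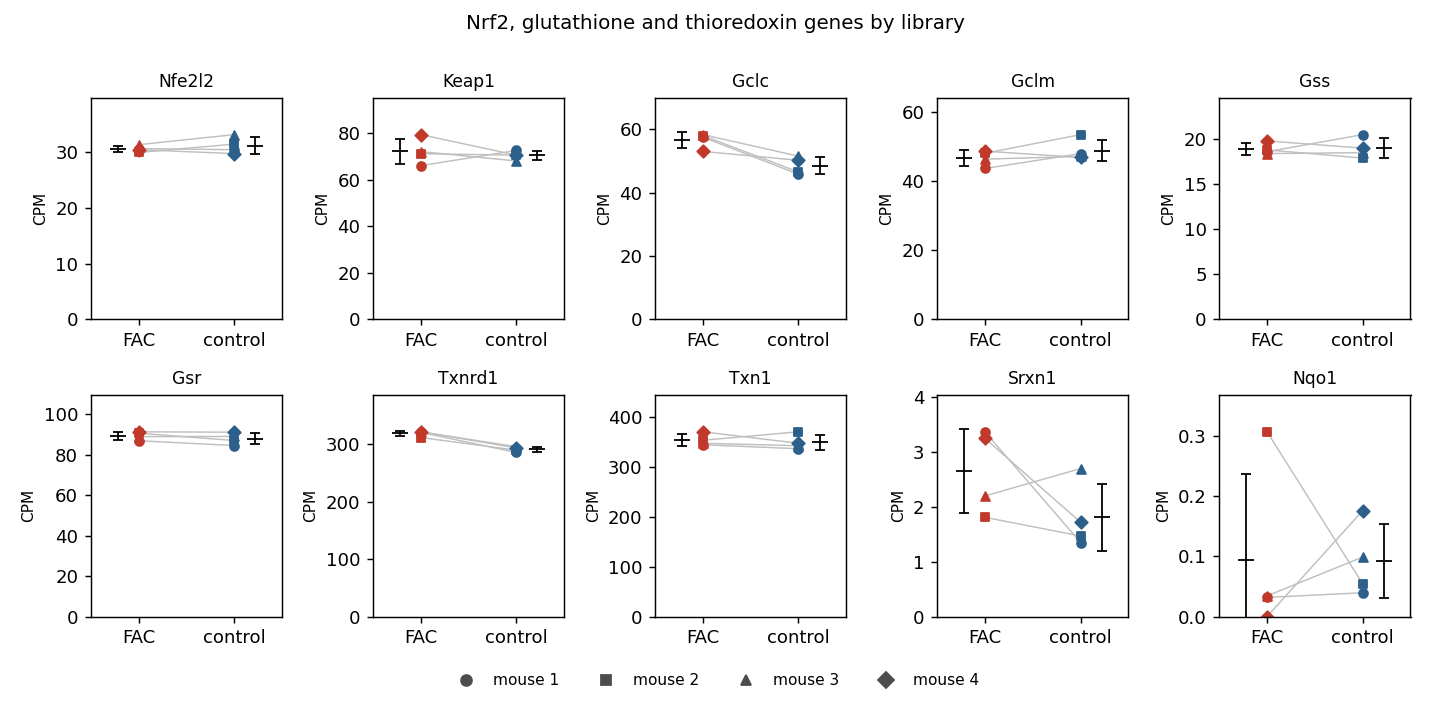
CPM (counts scaled to a common library total) of the 10 genes in each library, with FAC left of control, 1 symbol shape per mouse, grey lines joining the cultures of a mouse, and bars giving mean and SD (n = 4 each). All 4 FAC libraries lie above all 4 control libraries for Gclc (53 to 58.3 against 45.8 to 51.5 CPM) and Txnrd1 (312 to 322 against 286 to 296 CPM), and the groups overlap in the other 8 panels.

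The regulators did not differ between the groups beyond their spread. Nfe2l2 (ENSMUSG00000015839) had 30.6, 29.9, 31.3 and 30.4 CPM in FAC libraries of mice 1 to 4, against 30.4, 31.4, 33.1 and 29.7 CPM in control libraries. The groups overlapped, and the FAC library was the higher in 2 of 4 mice. Nfe2l2 averaged 30.6 ± 0.574 CPM in FAC and 31.2 ± 1.49 CPM in control cultures (SD, n = 4 each), a log2 change of -0.03 (SE 0.05, 95% interval -0.14 to 0.08, edgeR adjusted p = 0.814). Keap1 (ENSMUSG00000003308), whose product senses electrophiles and targets Nrf2 for degradation, had 66, 71.1, 72 and 79.3 CPM in FAC libraries against 72.5, 70.5, 68 and 70.5 CPM in control libraries. FAC 1 was the lowest and FAC 4 the highest of the 8 libraries, so that the spread was wider in FAC (72.1 ± 5.47 CPM) than in control cultures (70.4 ± 1.83 CPM). Its log2 change was 0.03 (SE 0.05, 95% interval -0.08 to 0.15, edgeR adjusted p = 0.789). The ratio of Nfe2l2 to Keap1 in TPM was 0.54 ± 0.0551 in FAC and 0.554 ± 0.0458 in control cultures, and was higher with FAC in 1 of 4 mice (two-sided exact permutation test, p = 0.714).

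Glutamate-cysteine ligase makes the first and rate-limiting bond of glutathione. The gene of its catalytic subunit was called and that of its modifier subunit was not, but their ratio, given further on, did not pass a test. Gclc (ENSMUSG00000032350), the catalytic subunit, had 57.5, 58, 58.3 and 53 CPM in FAC libraries of mice 1 to 4, against 45.8, 46.5, 51.5 and 50.2 CPM in control libraries. Every FAC library was above every control library, and the distance was smallest in mouse 4, where the FAC library was the lowest of its group. Gclc rose by 17% (56.7 ± 2.47 CPM in FAC and 48.5 ± 2.8 CPM in control cultures), a log2 change of 0.23 (SE 0.05, 95% interval 0.11 to 0.34, edgeR adjusted p = 0.0379). Its log2 change within a mouse was 0.33, 0.32, 0.18 and 0.08 in mice 1 to 4, and with the mouse as a block the edgeR adjusted p was 0.0198. The call was not stable when 1 library was left out. It ended without FAC 1, FAC 2 or FAC 3 (edgeR adjusted p = 0.0574, 0.136 and 0.136) and without control 1, control 2 or control 4 (0.112, 0.106 and 0.0508). It held without FAC 4 (0.0203) and without control 3 (0.0459), while the log2 change stayed between 0.20 and 0.26. Over all genes, the fits that left out 1 library called 147 to 549 genes, beside 438 with all 8 libraries. In TPM, Gclc had 25.7, 26, 26.3 and 22.9 in FAC libraries against 19.5, 19.7, 22.1 and 22.1 in control libraries. The groups stayed apart by less than 1 TPM, and the log2(TPM + 1) change of 0.26 did not pass (limma adjusted p = 0.131).

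Gclm (ENSMUSG00000028124), the modifier subunit that lowers the enzyme's sensitivity to inhibition by glutathione, had 43.7, 48.1, 46.4 and 48.7 CPM in FAC libraries against 48, 53.5, 47.2 and 46.9 CPM in control libraries. The groups overlapped, the FAC library was the lower in 3 of 4 mice, and control 2 stood above the other libraries. Gclm averaged 46.7 ± 2.27 CPM in FAC and 48.9 ± 3.11 CPM in control cultures, a log2 change of -0.07 (SE 0.06, 95% interval -0.19 to 0.05, edgeR adjusted p = 0.577). On the TPM scale the order of the groups was the reverse. Gclm had 62.4, 75, 69.6 and 78.7 TPM in FAC libraries against 63.3, 70, 63.9 and 63.2 TPM in control libraries, where FAC 1 was the lowest of the 8 and FAC 4 the highest. The log2(TPM + 1) change was 0.13 (limma adjusted p = 0.509), and edgeR with the effective gene length of each library as an offset gave 0.09 (adjusted p = 0.64). The direction of Gclm thus turned with the length scaling, and no fit called it.

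The gene length that RSEM reports is the mean of a gene's transcript lengths weighted by their estimated abundance, so it moves with the estimated mix of transcripts. Gclm has 7 annotated transcripts, and its length was 1150, 1062, 1109 and 1025 bases in FAC libraries of mice 1 to 4, against 1212, 1181, 1193 and 1196 bases in control libraries. Every FAC value was below every control value, and FAC 4, the library with the highest Gclm TPM, had the shortest length. The mean was 1086 ± 54.7 bases in FAC and 1195 ± 12.6 bases in control cultures, a difference of -109 bases (-9.11%; two-sided exact permutation test over 70 assignments, p = 0.0286, the smallest it can give). The length was shorter with FAC in 4 of 4 mice, for which sign flips within mice gave an exact p of 0.125, also the smallest possible. Adjusted over the 10512 tested genes whose length varied, the p was at most 0.617, an upper limit worked out from the genes at the smallest p alone. The next larger p the test can give is 0.0571, so the adjusted p could not fall under 0.05. Groups did not overlap in length for 487 of these genes (4.63%), 304 of them shorter with FAC (2.89%), and 81 of the 304 had a larger relative difference than Gclm. The groups overlapped in length for each of the other 7 genes with several transcripts, with exact p between 0.0571 for Nfe2l2 and 0.914 for Gsr, while Txn1 and Nqo1 have 1 annotated transcript each. All 487 genes whose groups did not overlap had the same smallest p, so they share 1 adjusted p, of at most 0.617. The difference in Gclm length thus did not pass over all genes and is not set apart from those of the other separated genes.

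**Figure D2:**
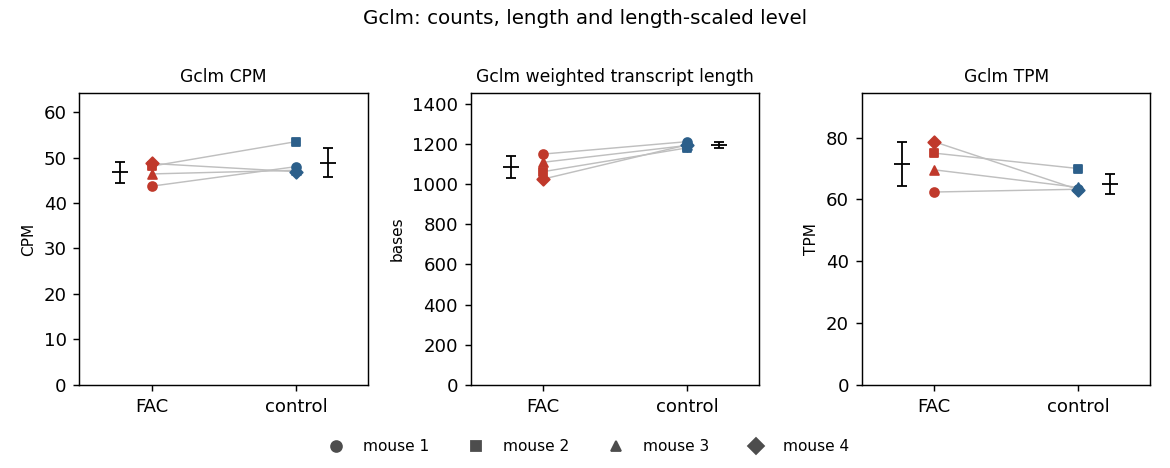
Gclm in each library as counts scaled to the library total (left, CPM), weighted transcript length (middle, bases) and length-scaled level (right, TPM), with FAC left of control, lines joining the cultures of a mouse, and bars giving mean and SD (n = 4 each). CPM was lower with FAC in 3 of 4 mice, length was 1025 to 1150 bases in FAC and 1181 to 1212 bases in control libraries, and the TPM of FAC 4 (78.7) was the highest of the 8.

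The balance of the 2 ligase subunits was read from TPM, which allows levels of different genes to be compared. There were 2.43, 2.88, 2.65 and 3.44 Gclm transcripts per Gclc transcript in FAC libraries, against 3.25, 3.56, 2.89 and 2.87 in control libraries. The ratio was lower with FAC in mice 1 to 3 and higher in mouse 4, and the groups overlapped. It averaged 2.85 ± 0.433 in FAC and 3.14 ± 0.328 in control cultures, a difference of -0.15 in mean log2 ratio (two-sided exact permutation test, p = 0.286, 0.429 adjusted over the 3 ratios tested). The size of this difference and the order in mouse 4 depended on the length scaling. From counts with no length scaling the ratio was 0.759, 0.83, 0.796 and 0.918 in FAC libraries against 1.05, 1.15, 0.916 and 0.934 in control libraries. It was lower with FAC in 4 of 4 mice, FAC 4 and control 3 were nearly level, and the difference was -0.29 in mean log2 ratio (exact permutation p = 0.0571, 0.0857 adjusted over 3 ratios).

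The other 2 glutathione genes stayed close to their control levels. Gss (ENSMUSG00000027610), glutathione synthetase, which adds glycine in the second step, had 18.6, 18.8, 18.4 and 19.8 CPM in FAC libraries against 20.5, 17.9, 18.5 and 19 CPM in control libraries. The control libraries enclosed all 4 FAC values. Gss averaged 18.9 ± 0.592 CPM in FAC and 19 ± 1.08 CPM in control cultures (log2 change 0.00, 95% interval -0.14 to 0.14, edgeR adjusted p = 0.985). Gsr (ENSMUSG00000031584), glutathione reductase, which uses NADPH to return oxidised glutathione to its reduced form, had 87, 90.7, 89 and 91.4 CPM in FAC libraries against 84.6, 87.1, 89.1 and 91.2 CPM in control libraries. Both groups spread over nearly the same range, with FAC the higher in 3 of 4 mice. It averaged 89.5 ± 1.97 CPM in FAC and 88 ± 2.82 CPM in control cultures (log2 change 0.02, 95% interval -0.06 to 0.11, edgeR adjusted p = 0.797).

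In the thioredoxin system the reductase was higher with FAC and no difference in thioredoxin was detected. Txnrd1 (ENSMUSG00000020250), the cytosolic selenoprotein that reduces thioredoxin with NADPH, had 321, 312, 322 and 322 CPM in FAC libraries of mice 1 to 4, against 286, 290, 296 and 294 CPM in control libraries. The groups did not overlap, and within each the libraries lay close together, with FAC 2 the lowest of its group. Txnrd1 rose by 9.55% (319 ± 4.81 CPM in FAC and 292 ± 4.61 CPM in control cultures), a log2 change of 0.13 (SE 0.03, 95% interval 0.06 to 0.20, edgeR adjusted p = 0.0395). The log2 change was of similar size in every mouse, at 0.17, 0.10, 0.12 and 0.13 in mice 1 to 4. With the mouse as a block the edgeR adjusted p was 0.0193. The call held without FAC 1 (0.0497). It ended without FAC 2, FAC 3 or FAC 4 (edgeR adjusted p = 0.109, 0.144 and 0.0579) and without control 1, 2, 3 or 4 (0.122, 0.0802, 0.103 and 0.0715), while the log2 change stayed between 0.12 and 0.14. It also ended with no filter on low counts (0.13) and in TPM (limma, log2(TPM + 1) change 0.18, adjusted p = 0.172). No fit that left out a library called both Gclc and Txnrd1.

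Txn1 (ENSMUSG00000028367), cytosolic thioredoxin itself, had 345, 354, 348 and 371 CPM in FAC libraries against 337, 371, 343 and 348 CPM in control libraries. The highest libraries of the 2 groups, FAC 4 and control 2, were level. Txn1 averaged 355 ± 11.5 CPM in FAC and 350 ± 14.9 CPM in control cultures, a log2 change of 0.02 (SE 0.04, 95% interval -0.06 to 0.11, edgeR adjusted p = 0.83). The ratio of Txnrd1 to Txn1 in TPM was 0.284, 0.278, 0.298 and 0.276 in FAC libraries against 0.269, 0.238, 0.272 and 0.264 in control libraries. Each FAC library was above each control library, and the mean was 0.284 ± 0.00998 in FAC and 0.261 ± 0.0151 in control cultures. The difference of 0.13 in mean log2 ratio was higher with FAC in 4 of 4 mice. A two-sided exact permutation test gave p = 0.0286 and sign flips within mice an exact p of 0.125, each the smallest possible, and after adjustment over the 3 ratios the difference missed 0.05 (p = 0.0857).

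Srxn1 (ENSMUSG00000032802), sulfiredoxin, which restores peroxiredoxins that have been oxidised to the sulfinic form, had the largest estimate and the widest error of the 9 genes tested. Its counts were low, at 106, 59, 64 and 83 in FAC libraries and 34, 54, 82 and 49 in control libraries. These counts correspond to 3.37, 1.81, 2.2 and 3.25 CPM in FAC libraries against 1.35, 1.47, 2.7 and 1.72 CPM in control libraries. FAC 1 and FAC 4 stood above all control libraries, while FAC 2 and FAC 3 lay within the control range. Srxn1 averaged 2.66 ± 0.769 CPM in FAC and 1.81 ± 0.615 CPM in control cultures, a log2 change of 0.55 (SE 0.27, 95% interval -0.02 to 1.12, edgeR adjusted p = 0.293, unadjusted p = 0.0589). Per length the groups did not overlap, with 2.48, 2.47, 2.17 and 2.95 TPM in FAC libraries against 0.71, 1.03, 2.13 and 2 TPM in control libraries. The lowest FAC library, FAC 3, was just above the highest control library, control 3, and the log2(TPM + 1) change of 0.55 did not pass (limma adjusted p = 0.241). Its weighted transcript length, estimated from these few reads, ran from 1192 to 2081 bases in FAC and from 1363 to 2812 bases in control libraries. The log2 change in CPM within a mouse was 1.28, 0.29, -0.29 and 0.89 in mice 1 to 4. No fit run here called the gene (edgeR adjusted p from 0.156 to 0.502 when 1 library was left out).

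Nqo1 (ENSMUSG00000003849), a quinone reductase often used as a reporter of Nrf2 activity, was barely detected. Its counts were 1, 10, 1 and 0 in FAC libraries and 1, 2, 3 and 5 in control libraries, and it did not pass the filter on low counts. The sum was 12 counts in FAC and 11 in control libraries, with 10 of the 12 from FAC 2. At the depth of FAC 4, a count of 0 allows up to 0.118 CPM, which is an upper limit and not a measured level.

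**Figure D3:**
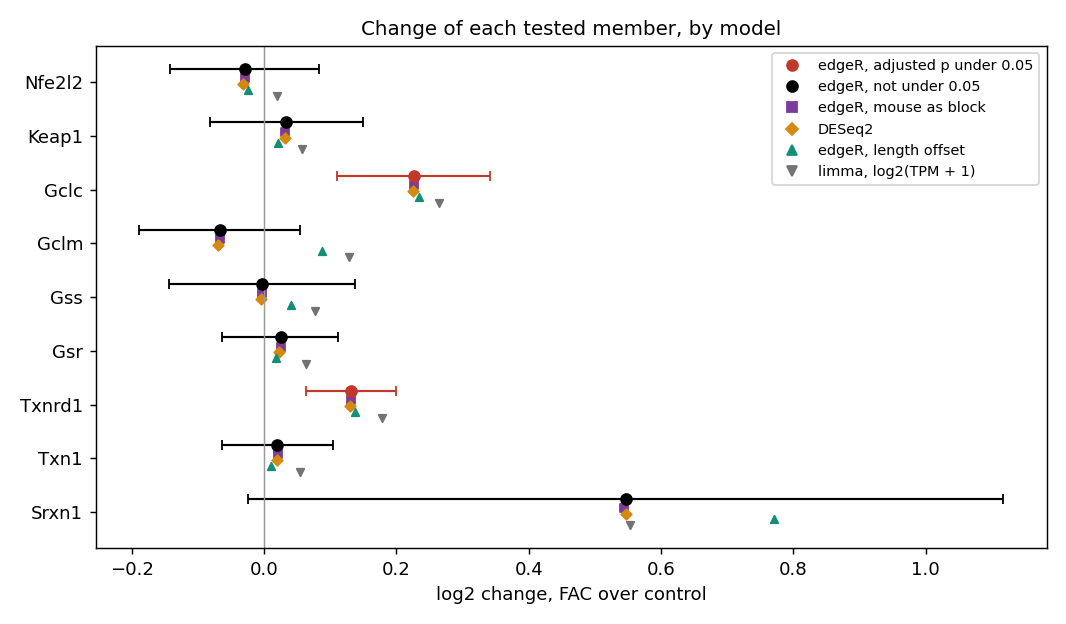
Log2 change of the 9 tested genes, FAC over control, from edgeR with its 95% interval (circles with bars) and from 4 other fits (mouse as block, DESeq2, effective length as offset, and limma on log2(TPM + 1)). Gclc at 0.23 and Txnrd1 at 0.13 have intervals above 0, Srxn1 at 0.55 has the widest interval, and Gclm lies below 0 in the 3 fits without length scaling and above 0 in the 2 with it.

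Per length, the genes spanned a wide range of levels in both groups. Txn1 was highest, at 561 ± 14.8 TPM in FAC and 541 ± 13.3 TPM in control cultures (SD, n = 4 each), and ranked 242 among the 57010 genes by mean level. Txnrd1 followed with 159 ± 5.02 TPM in FAC and 141 ± 5.98 TPM in control cultures. Gclm (71.4 ± 7.12 TPM in FAC, 65.1 ± 3.3 TPM in control) and Gsr (66.3 ± 7.28 TPM in FAC, 63.8 ± 10.5 TPM in control) were next and did not differ beyond their spread, with Gclm above Gsr in 7 of 8 libraries. Below them came Keap1 (35.9 ± 3.27 TPM in FAC, 34.4 ± 1.8 TPM in control), Gclc (25.2 ± 1.56 TPM in FAC, 20.8 ± 1.44 TPM in control) and Nfe2l2 (19.3 ± 0.409 TPM in FAC, 19 ± 1.03 TPM in control). Gss had 15.8 ± 1.12 TPM in FAC and 14.9 ± 0.969 TPM in control cultures, and Srxn1 had 2.52 ± 0.322 TPM in FAC and 1.47 ± 0.704 TPM in control cultures. Apart from Gclm and Gsr, each gene was above the next one in 8 of 8 libraries, down to Nqo1, whose highest value was 0.31 TPM in FAC 2. The order of the genes by level was thus the same in FAC and control cultures.

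**Figure D4:**
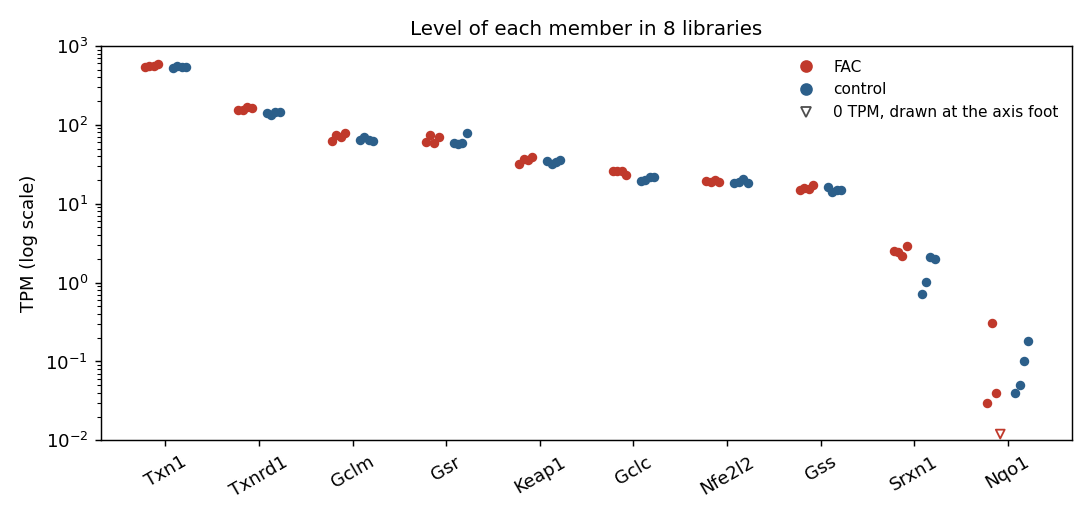
TPM of the 10 genes in each library on a log axis, ordered by mean level, with the 4 FAC libraries left of the 4 control libraries of each gene; a triangle at the foot marks 0 TPM. Levels run from 524 to 583 TPM for Txn1 down to 0 to 0.31 TPM for Nqo1, and only the Gclm and Gsr points change places between libraries.

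Of the 10 genes, Gclc had the larger of the 2 called changes, and it was compared with 8130 other genes of at least 10 CPM for likeness over the 8 libraries. Likeness was the mean absolute difference of log2 CPM after centring each gene on its own mean, whose median was 0.14 over all genes compared. The closest were Mapk7, a kinase of the ERK5 pathway, at 0.02, Trim11, a ubiquitin ligase, at 0.02, and Bicra, a subunit of a SWI/SNF chromatin remodelling complex, at 0.03. Mapk7 had 21.4, 21.3, 22.1 and 20 CPM in FAC libraries against 17.4, 17.1, 19.1 and 19.1 CPM in control libraries (log2 change 0.22, edgeR adjusted p = 0.0919). Like Gclc, it was lowest in FAC 4 among FAC libraries and lower in control 1 and 2 than in control 3 and 4. Trim11 and Bicra had log2 changes of 0.24 and 0.22 (edgeR adjusted p = 0.0434 and 0.0425). They were picked for this likeness, so their changes are no separate evidence.

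Around these 10 genes, 6 lists covered 126 other genes of the same pathways, of which 102 were tested. The lists too were chosen with earlier results known. With FAC, 5 of the 102 were called as higher, none as lower, and 97 did not pass. That is 4.9% beside 3.27% of all genes tested. The median log2 change was 0.01, with 57 above and 45 below 0. In CPM, all FAC libraries lay above all control libraries for 7 of the 102 and below them for 2, beside 825 and 654 of all 13378 genes tested. The 2 were Nfe2l1 and Prdx2, each at a log2 change of -0.09 (edgeR adjusted p = 0.186 and 0.236). The 5 called genes were G6pdx, Ftl1, Chac1, Sesn1 and Sesn3, each higher with FAC in 4 of 4 mice. With the effective gene length as an offset Chac1 alone of the 5 was called (edgeR adjusted p = 0.0364), while the log2 changes of G6pdx, Ftl1, Sesn1 and Sesn3 were 0.22, 0.18, 0.28 and 0.26.

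Among 18 tested partners and regulators of Nrf2, none was called (median log2 change -0.01). Cul3 and Rbx1, the ligase core that Keap1 recruits, had log2 changes of 0.04 and -0.08 (edgeR adjusted p = 0.586 and 0.343), and Sqstm1, the autophagy receptor p62 that binds Keap1, had 0.05 (0.608). With the mouse as a block, Btrc, a subunit of another ligase for Nrf2, was called as higher (edgeR adjusted p = 0.0285); without the block its log2 change was 0.28 (0.143).

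Of 21 other Nrf2 target genes tested, 2 were called as higher and none as lower, with a median log2 change of 0.03. The change was above 0 for 18 of the 21 and below 0 for 3, beside 6639 and 6739 of all genes tested. Whether the list shifted as a whole was not tested. G6pdx, the first enzyme of the pentose phosphate pathway and a main source of NADPH, had 87.2, 87.1, 84.3 and 91.9 CPM in FAC libraries against 76.7, 79.4, 74.2 and 76.9 CPM in control libraries. The groups did not overlap, and the log2 change was 0.19 (SE 0.04, edgeR adjusted p = 0.0304). The G6pdx call ended without FAC 2, 3 or 4 (0.11, 0.0661 and 0.0525) and without control 1, 3 or 4 (0.0848, 0.116 and 0.0586), with a log2 change between 0.17 and 0.21 throughout. Ftl1, the light chain of the iron store ferritin, had 329, 349, 347 and 373 CPM in FAC libraries against 296, 332, 293 and 301 CPM in control libraries. Control 2 lay above FAC 1, so the groups overlapped, and the log2 change was 0.19 (SE 0.05, edgeR adjusted p = 0.0449). Without FAC 2, 3 or 4 the Ftl1 call ended (0.149, 0.139 and 0.0816), as it did without control 1, 3 or 4 (0.13, 0.152 and 0.0984), with a log2 change between 0.16 and 0.24 throughout. Ftl1 has pseudogene copies in the genome, and how reads were shared with them is not known. Prdx1, Fth1 and Tkt had log2 changes of -0.04, 0.07 and 0.06 (edgeR adjusted p = 0.724, 0.525 and 0.435).

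Hmox1, the haem oxygenase gene and a classical Nrf2 target, had 1.53 ± 0.436 CPM in FAC and 1.52 ± 0.551 CPM in control cultures (edgeR adjusted p = 0.992). The cystine transporter gene Slc7a11 did not pass the filter, with 18 counts over the FAC and 12 over the control libraries. Neither gene falls under the rule for naming, and both are given because they are widely read as reporters of Nrf2.

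Of 32 other glutathione genes tested, Chac1 alone was called and the median log2 change was 0.01. Chac1, an enzyme of the cytosol that breaks glutathione down, had 36, 23, 42 and 21 counts in FAC libraries and 7, 13, 10 and 7 counts in control libraries. All FAC libraries were above all control libraries, at 1.03 ± 0.334 CPM in FAC and 0.302 ± 0.0487 CPM in control cultures. Its log2 change of 1.74 (SE 0.34, edgeR adjusted p = 0.0147) was the largest of the lists. The call ended without FAC 3 (0.0732) and without control 1 (0.0538), and on the log2(TPM + 1) scale the change was 0.62 (limma adjusted p = 0.0539). The peroxidase gene Gpx1, the transferase gene Gstp1 and the glutaredoxin gene Glrx3 had log2 changes of -0.08, 0.02 and -0.03 (edgeR adjusted p = 0.299, 0.858 and 0.77).

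Of 21 other thioredoxin system genes tested, 2 were higher and none lower, and the median log2 change was -0.05. The 2 encode sestrins, stress-induced regulators of amino acid sensing that have also been linked to peroxiredoxins. The third sestrin gene, Sesn2, did not pass, at 33.6 ± 2.46 CPM in FAC and 34.8 ± 1.41 CPM in control cultures (log2 change -0.05, edgeR adjusted p = 0.701). Sesn1 had 19.3, 19.6, 20.4 and 17.5 CPM in FAC libraries against 15.9, 15.6, 15.9 and 15.1 CPM in control libraries (log2 change 0.30, SE 0.07, edgeR adjusted p = 0.0339). Sesn3 had 112, 109, 115 and 105 CPM in FAC libraries against 94.2, 81.6, 103 and 94.1 CPM in control libraries (0.24, SE 0.06, edgeR adjusted p = 0.0451). For Sesn1 and Sesn3 all FAC libraries lay above all control libraries in CPM. In TPM the groups of Sesn3 overlapped, at 22.3, 25.4, 22 and 26.6 in FAC libraries against 25, 15.1, 19.9 and 18.4 in control libraries. Sesn1 was not called without FAC 2 or 3 (0.115 and 0.135) or without control 1, 2, 3 or 4 (0.0786, 0.085, 0.0751 and 0.0774), nor Sesn3 without FAC 1, 2 or 3 (0.0673, 0.118 and 0.159) or control 1, 2 or 4 (0.101, 0.085 and 0.0774). The log2 change stayed between 0.26 and 0.34 for Sesn1 and between 0.18 and 0.29 for Sesn3 in these fits. The mitochondrial thioredoxin gene Txn2 and the peroxiredoxin gene Prdx6 had log2 changes of -0.05 and -0.04 (edgeR adjusted p = 0.403 and 0.673).

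Of 13 tested genes that supply NADPH, G6pdx alone was called and the median log2 change was 0.02. Mthfd1, Mthfd2 and Nadk had log2 changes of -0.03, -0.09 and 0.02 (edgeR adjusted p = 0.606, 0.222 and 0.775). With the mouse as a block Idh1, an NADPH-forming isocitrate dehydrogenase, was also called as higher (edgeR adjusted p = 0.0417). It averaged 1.65 ± 0.257 CPM in FAC and 0.824 ± 0.357 CPM in control cultures, and without the block its log2 change of 1.01 did not pass (0.091). None of the 4 tested superoxide and peroxide genes was called, and Sod1, Sod2 and Cat had log2 changes of 0.02, 0.03 and 0.04 (edgeR adjusted p = 0.87, 0.733 and 0.68).

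**Figure D5:**
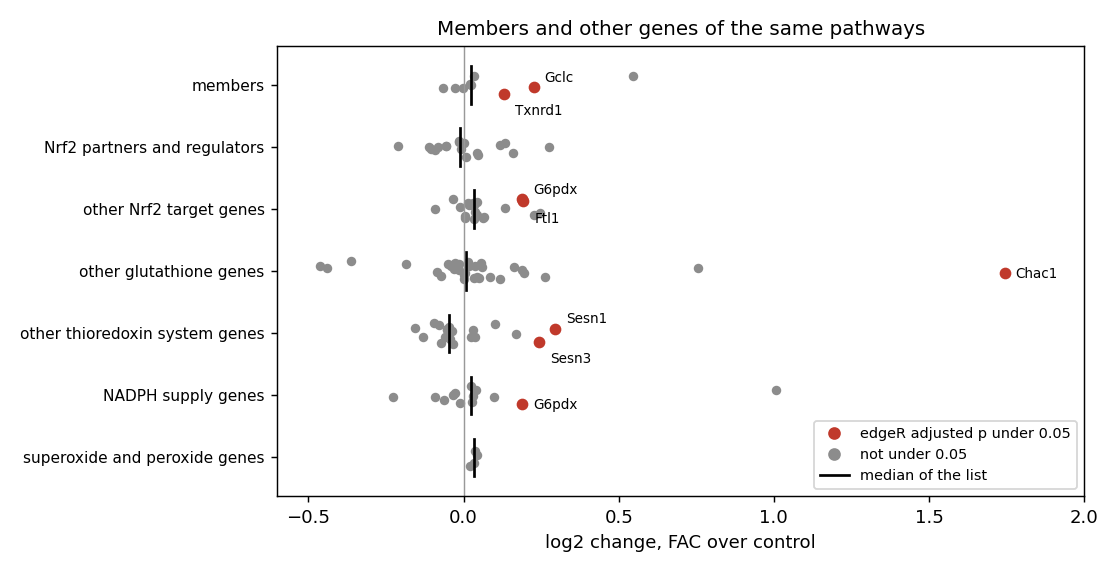
Log2 change, FAC over control, of every tested gene of the 10 (top row, members) and of 6 lists of other genes of the same pathways, with called genes in red and the median of each list as a bar. G6pdx stands in 2 lists, Chac1 lies farthest to the right at 1.74, and the medians lie between -0.05 and 0.04.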

How the data were processed

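Total RNA of each culture was made into stranded mRNA libraries, per the labels' protocols. The submitters' processing notes list, with neither role nor order, STAR 2.7.6a, RSEM 1.3.1, DESeq2 1.26.0, DESeq, FastQC, R 3.6.3 and build GRCm39. The annotation release, and whether counting used strand, are not given in the sources used here. RSEM gene results were deposited by the authors for each of the 8 libraries, per the file headers. Expected counts in these deposited files are RSEM's estimated reads per gene, unscaled. The TPM values in the same deposited files were scaled for length and to a fixed total per library. Gene length and effective length, in bases, come from there too. A further table deposited by the authors gives a normalised signal for 13751 genes, and how it was scaled is not known here.

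Expected counts were rounded and tested with edgeR 4.0.16 (R 4.3.3): quasi-likelihood test on the group alone, TMM factors, expression filter with minimum count 10 and minimum total 15, Benjamini-Hochberg adjustment over the 13378 genes kept (99.9% of counts), called at 0.05. Intervals rest on the test's F statistic and are approximate at low counts. Alternatives were DESeq2 1.42.0, limma 3.58.1 on log2(TPM + 1) and on the deposited signal, other filters and factors, the mouse as a block, and leaving out each library; the length offset and the ratios of counts were chosen only once the data had been seen. The fit was tested on simulated data whose changes were larger than those of Gclc and Txnrd1, so that test does not cover changes as small as theirs. Totals of 25410267 to 37350609 counts put the floor used for a count of 0 (3 counts) at 0.0803 to 0.118 CPM, which covers counting error only because reads have no molecular identifiers. Ratios and lengths were compared by two-sided exact permutation tests over 70 assignments of the libraries, with a smallest p of 0.0286.

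The members, the pathway lists and the marker lists were chosen with earlier results of these data known. Genes named from a list are those called and the 3 uncalled ones with the highest mean TPM. Hmox1, Slc7a11, Btrc, Idh1, Sesn2, Nfe2l1 and Prdx2 were added after their values were seen. Same-numbered cultures come from the same mouse, and the pairing rests on the labels. Deviations from the group mean correlated across genes, within mice 1 to 4, at 0.137, 0.0165, 0.0647 and 0.139. Between FAC and control libraries of different mice the correlations ran from -0.18 to 0.0331, a range that holds the value of mouse 2. Symbols came from the deposited table and from GENCODE M21 (GRCm38). In GENCODE M21, other genes overlap Txnrd1 (Eid3), Gclm (the pseudogene Gm6061), Nfe2l2 (Gm24996) and Gsr (Gm24727) on the same strand. Keap1, Gclm, Gss and Txnrd1 have overlaps on the opposite strand. Of the called list genes, Sesn1 (9930024M15Rik) and Ftl1 (Gm22133) have overlaps on the same strand, and Ftl1 (Gm10252) and G6pdx (Ikbkg) on the opposite strand. Reads in all these places may be shared. Txn1, like Ftl1, has a pseudogene copy. Promoter sequences are from RefSeq, GRCm38.p6, not the build of the counts.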

Additional observations from a re-analysis of the deposited data

Results flagged for a closer look

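In groups of 4 libraries, the highest or lowest value was flagged where its gap to the nearest other value passed the 95% critical value of Dixon's test. Of 64 groups in 32 genes looked at, 9 met this; chance flags about 1 in 20 groups. Among the 10 genes, Gclc had 53 CPM in FAC 4, below the 57.5 to 58.3 CPM of the other FAC libraries and above all control libraries. Txnrd1 had 312 CPM in FAC 2, below the 321 to 322 CPM of the other FAC libraries and above all control libraries. Gclm had 53.5 CPM in control 2, above the 46.9 to 48 CPM of the other control libraries. Nqo1 had 0.307 CPM in FAC 2, against 0 to 0.0344 CPM in the other FAC libraries.

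Among the pathway genes, Cul3 had 230 CPM in FAC 1 (208 to 212 CPM in the other FAC libraries). In FAC 4, Txn2 had 314 CPM (303 to 304), Mthfd2 had 196 CPM (178 to 180) and Cat had 43.3 CPM (45 to 45.2). Sod1 had 249 CPM in control 2 (215 to 219 CPM in the other control libraries). Of the 9 values, 4 were from FAC 4, 2 from FAC 2, 2 from control 2 and 1 from FAC 1.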

How the results depend on the processing

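Over all genes, 438 were called. The count was 736 with no filter on low counts, 797 with DESeq2, 187 with the length offset, 80, 80 and 55 with limma on log2(TPM + 1), on log2(TPM + 0.1) and on log2(TPM + 1) without the filter, 78 on the deposited signal, and 147 to 549 without 1 library. Of the 10 genes, 1 was called with no filter, 0 with the length offset, in each limma fit on TPM and on the deposited signal, and 0 to 1 without 1 library. Of the pathway genes, 1, 0, 1, 0 and 1 were called with the length offset, the 3 limma fits on TPM and the deposited signal, and 0 to 4 without 1 library. The replicate block by mouse called 919 genes, among them 436 of the 438, and ended no call named here.

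Some small changes turned sign. With the length offset, TPM (+ 1, + 0.1, unfiltered) and the deposited signal, Gclm was 0.088, 0.128, 0.129, 0.128 and 0.082, and Gss 0.041, 0.077, 0.081, 0.077 and 0.034. Nfe2l2 was 0.019, 0.020 and 0.019 in the limma fits on TPM (+ 1, + 0.1, unfiltered). The median of all genes in these 3 fits was 0.035, 0.040 and 0.021, beside -0.001 in the main fit, so Nfe2l2 stayed below the median. With the length offset and the deposited signal, Nadk was -0.016 and -0.022, Sod1 -0.012 and -0.016, and Sod2 -0.027 and -0.033. Leaving out 1 library gave -0.015 to 0.073 for Keap1, -0.029 to 0.033 for Gss, -0.003 to 0.051 for Txn1, -0.010 to 0.048 for Gstp1, -0.012 to 0.075 for Sod1, and -0.101 to 0.009 for the log2 ratio of Nfe2l2 to Keap1. It moved the difference in length to between -23.9 and 64.1 bases for Keap1, -120 and 60.4 for Gsr, and -49.4 and 1.37 for Txnrd1. The causes were not tested. Without 1 library the smallest p of the exact tests is 0.0571, so these say nothing about stability. The median change of all genes stayed between -0.01 and 0.04 in every fit. Low counts limit Nqo1, Srxn1, Chac1, Idh1, Hmox1 and Slc7a11.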
